A study of Mus musculus with 61 samples.

Results

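Type 1 diabetes is an autoimmune loss of β-cells, and the proteins against which patients carry autoantibodies or T cells are largely products of the β-cell's own secretory machinery. Insulin is packed with zinc into dense-core granules, whose membrane carries the phosphatase-like proteins IA-2 (Ptprn) and phogrin (Ptprn2) and the zinc transporter ZnT8 (Slc30a8). Glutamate decarboxylase (Gad1 and Gad2) makes the transmitter GABA, which islet cells also contain, and Ica1 encodes a membrane-curving protein of the Golgi and immature granules. The 8 genes Ins1, Ins2, Ptprn, Ptprn2, Slc30a8, Gad1, Gad2 and Ica1 were chosen by name from the 46078 genes of the count table, with earlier results of these data known.

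They were followed in mouse pancreatic ductal organoids, three-dimensional cultures of duct cells from C57BL/6 mice, in which doxycycline-inducible lentiviral vectors expressed Ngn3 with GFP, Pdx1 with LSSOrange and MafA with tdTomato for 8 days. Cells were sorted by these reporters in pools of 50 into 6 factor combinations (Pdx1 or MafA alone or both, and the same 3 together with Ngn3), each from cultures given wild-type Ngn3 (WT) or the phospho-mutant form (6SA), so that every group carried at least 1 factor and none was uninfected. The 58 libraries kept were summed to 32 samples, 17 with Ngn3 and 15 without, with 2 or 3 replicates in each of the 12 conditions. Replicates 1 and 2 were organoids at passage 2 and replicate 3 at passage 5, and the labels do not say that replicates came from separate animals, so p-values measure only the spread between these samples. The sort read the reporters and not the endocrine state of a cell, so a sample may be a mixture, and fewer cells of a type and less RNA per cell cannot be told apart.

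The samples held 2579583 to 19461008 counts on genes (median 8490758.5), and levels are given as CPM, counts per 1000000 after TMM scaling. On this scale 3 counts stood at between 0.136 and 1.01 CPM, by the depth and scaling of the sample, which is a limit from counting error only. Neurog3, the Ngn3 gene, was at 7.87 to 329 CPM in the 17 samples with Ngn3 and at most 0.788 CPM in the 15 without. Mafa was at most 0.116 CPM where no MafA was given and at 3.46 to 12.7 CPM with all 3 factors, but it had 0 counts in the sample labelled 6SA Pdx1 with MafA, replicate 3, and 1 count (0.107 CPM) in that labelled WT MafA, replicate 1. Levels of Pdx1 overlapped between samples given Pdx1 and samples given MafA, at 11.2 to 37.7 against 4.22 to 19.3 CPM without Ngn3 and at 9.84 to 48.4 against 3.21 to 30.6 CPM beside it, so Pdx1 does not check these labels sample by sample. Mean levels of Pdx1 and Neurog3 were highest with all 3 factors. Pdx1 averaged 134 ± 61.3 CPM there (SD, n = 5). It averaged 22.15 ± 9.27 CPM where only Ngn3 was missing and 30.53 ± 13.25 CPM where only MafA was (n = 6 each). Neurog3 averaged 174 ± 112 CPM with all 3. It averaged 69.9 ± 79.5 CPM where only MafA was missing and 86.6 ± 72.65 CPM where only Pdx1 was (n = 6 each). Sample ranges overlapped for both genes. Duct markers were present throughout, with a summed level of 2502 to 22240 CPM over 11 genes with Ngn3 against 17170 to 66590 CPM without.

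Sequence just before the transcription start is shown for 4 members with contrasting patterns: Ins1, read only where Ngn3 and Pdx1 were together, Ptprn2 and Gad1, which went with Ngn3, and Gad2, the sister gene of Gad1, which stayed near 0. Capitals mark the E-box CANNTG, bound by basic helix-loop-helix factors such as Ngn3 and Neurod1, the core TAAT (or ATTA) of homeodomain factors such as Pdx1, and the core of the Maf recognition element, TGCTGAC (or GTCAGCA). The sequences are RefSeq's for GRCm38.p6, 5′ to 3′ on the plus strand, up to 250 bases before the start with bases of annotated exons left out, which shortens Gad1 to 163 bases and Gad2 to 128. The RefSeq start used for Gad1 lies inside the span of its Ensembl gene (chr2:70553072-70602014), not at its first base.
Ins1, chr19:52264047-52264296: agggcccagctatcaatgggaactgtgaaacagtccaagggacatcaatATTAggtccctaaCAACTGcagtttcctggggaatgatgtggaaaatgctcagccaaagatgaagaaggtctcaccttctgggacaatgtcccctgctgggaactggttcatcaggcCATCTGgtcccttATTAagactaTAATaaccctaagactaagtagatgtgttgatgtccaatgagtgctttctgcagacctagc
Ptprn2, chr12:116485470-116485719: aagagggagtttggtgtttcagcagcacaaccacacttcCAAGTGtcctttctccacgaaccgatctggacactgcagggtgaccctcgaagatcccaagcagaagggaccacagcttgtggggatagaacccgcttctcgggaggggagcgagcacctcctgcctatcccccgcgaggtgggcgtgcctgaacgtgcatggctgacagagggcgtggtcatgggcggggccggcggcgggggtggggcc
Gad1, chr2:70561879-70562041: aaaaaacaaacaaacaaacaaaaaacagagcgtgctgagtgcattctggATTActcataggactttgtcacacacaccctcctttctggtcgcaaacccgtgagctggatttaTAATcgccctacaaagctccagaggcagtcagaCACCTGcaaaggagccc
Gad2, chr2:22622077-22622204: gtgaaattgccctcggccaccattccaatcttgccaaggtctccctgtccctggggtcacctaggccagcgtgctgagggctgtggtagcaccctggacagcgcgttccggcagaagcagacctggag

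In the full 250-base windows, searched on both strands, Ins1 held 2 E-boxes and 3 TAAT cores, Gad1 held 1 and 2, and Ptprn2 held 1 E-box. Gad2 held 1 E-box and 1 Maf core, both in the exon bases not printed above. The E-boxes of Ins1 began 188 and 84 bases before the start and that of Gad1 104 bases before it. The other matched members were Ptprn, with 1 E-box 64 bases before the start of its first window, and Ica1, with 4 E-boxes in 1 window and 4 TAAT cores in the other. Such matches are common, since 66.2% of 32851 promoter windows of the same length held an E-box, 54.9% a TAAT core and 3.81% the Maf core. The table had windows for 6 of the 8 members, not for Ins2 and Slc30a8.

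**Figure D1:**
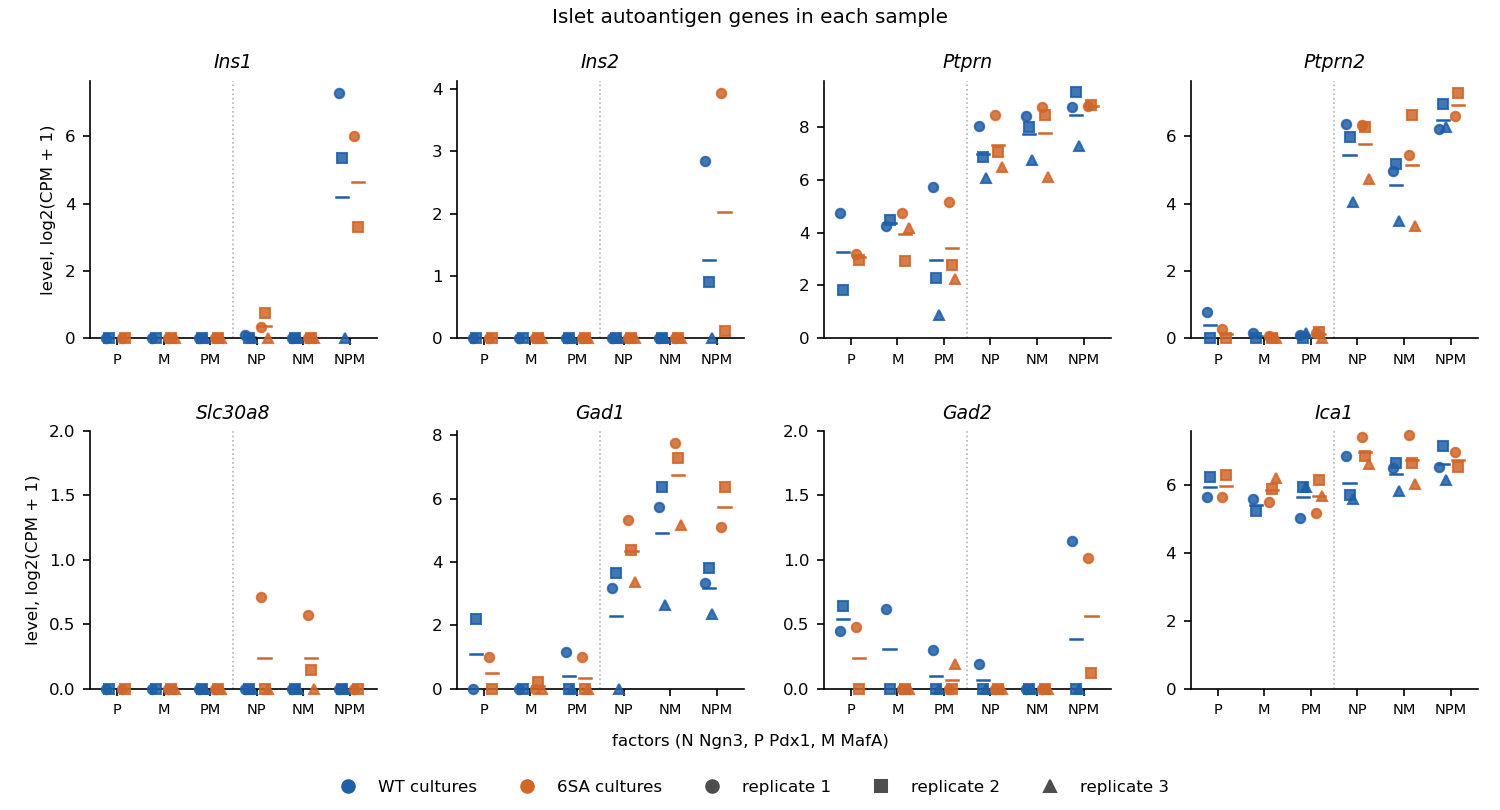
Level of each of the 8 genes in every sample, as log2(CPM + 1), by factor combination (N Ngn3, P Pdx1, M MafA), with 1 point per sample, coloured by culture and shaped by replicate, and a bar at the mean of each condition. Ptprn and Ptprn2 sit higher in all samples with Ngn3 than in all without, Ins1 and Ins2 appear almost only with all 3 factors, and Gad2 and Slc30a8 stay at or under 1.22 CPM.

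Ins1 (ENSMUSG00000035804, chr19:52264297-52265476, plus strand of GRCm38) is the rodent insulin gene that arose as a retroposed copy of Ins2 (ENSMUSG00000000215, chr7:142678656-142743381, minus strand). With Ngn3, Pdx1 and MafA together, Ins1 stood at 153, 39.6 and 0 CPM in WT replicates 1, 2 and 3 and at 62.5 and 8.86 CPM in 6SA replicates 1 and 2. Of the other 27 samples only 3 had any Ins1, all with Ngn3 and Pdx1, at 6, 6 and 1 counts. Ins1 therefore overlapped between the groups at 0, through 1 WT sample of passage 5. Ins2 was at 6.16, 0.878 and 0 CPM in the same WT samples and at 14.2 and 0.0868 CPM in the 6SA samples, and at 0 in all 27 others.

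When Ngn3 was added to Pdx1 with MafA, Ins1 was at least 139-fold and Ins2 at least 13-fold higher, against 3 counts per sample, technical repeats summed, averaged over a group with none (edgeR quasi-likelihood test with Benjamini-Hochberg adjustment, adjusted p = 0.000369 and 0.0183). In this comparison 9.42% of the 24004 genes tested were called higher, and 6 of the 7 members tested. Without replicate 1 the fitted log2 fold change fell from 11.87 to 9.51 for Ins1 and from 8.33 to 3.59 for Ins2. Taking MafA as the added factor, Ins1 had a log2 fold change of 8.49 over Ngn3 with Pdx1 (standard error 1.48, adjusted p = 0.00834), where 0.525% of genes were called higher and Ins1 was the 1 member called. Taking Pdx1 as the added factor, it exceeded cells with Ngn3 and MafA at least 147-fold (adjusted p = 0.00397, 1.17% of genes called higher), again the 1 member called. These 3 comparisons share the 5 samples with all factors. The part of the higher mean Pdx1 and Neurog3 levels of those samples in these changes was not tested. Both of the last calls were lost without replicate 2 (adjusted p = 0.15 and 0.148) and all 3 Ins1 calls were lost with DESeq2 (adjusted p = 0.0795, 0.34 and 0.135). The Ins2 call was lost without replicate 1 (adjusted p = 0.41), without replicate 2 (0.0814) and with DESeq2 (0.263).

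Ins2 over Ngn3 with MafA missed the threshold (at least 13-fold, adjusted p = 0.0601) and passed it in the fit blocked by replicate number (adjusted p = 0.0257). Over Ngn3 with Pdx1 it was at least 10-fold higher and did not pass (adjusted p = 0.081), though it did in the blocked fit (adjusted p = 0.0366). Ins1 took most of the insulin counts, at 96.1% (95% Wilson interval 95.2 to 96.9) and 97.8% (95.4 to 99) in replicates 1 and 2 of WT and 81.5% (79.1 to 83.6) and 99.03% (94.7 to 99.8) in those of 6SA. These intervals cover counting error only, and the first pool of replicate 1 of 6SA held 170 of its Ins2 counts beside 304 of Ins1, while the others held 22 and 18 of Ins2 beside 267 and 351 of Ins1. The coding parts of the 2 genes are much alike, so the split also rests on how reads shared by them were assigned.

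The pools of 50 cells that make up these samples differed widely. The 3 pools of WT replicate 1 held 192, 413 and 21.1 CPM of Ins1 on plain totals, a range of 19.6-fold within 1 culture, and those of 6SA replicate 1 held 48.7, 56.7 and 131 CPM, a range of 2.68-fold. Ins1 was counted in 8 of the 9 pools kept with all 3 factors. Ins2 did not follow Ins1 between pools: in WT replicate 1 it was at 22.6, 4.45 and 2.87 CPM, highest in the pool with the middle Ins1 level, and in 6SA replicate 1 at 27.3, 4.67 and 6.70 CPM, highest in the pool with the lowest.

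**Figure D2:**
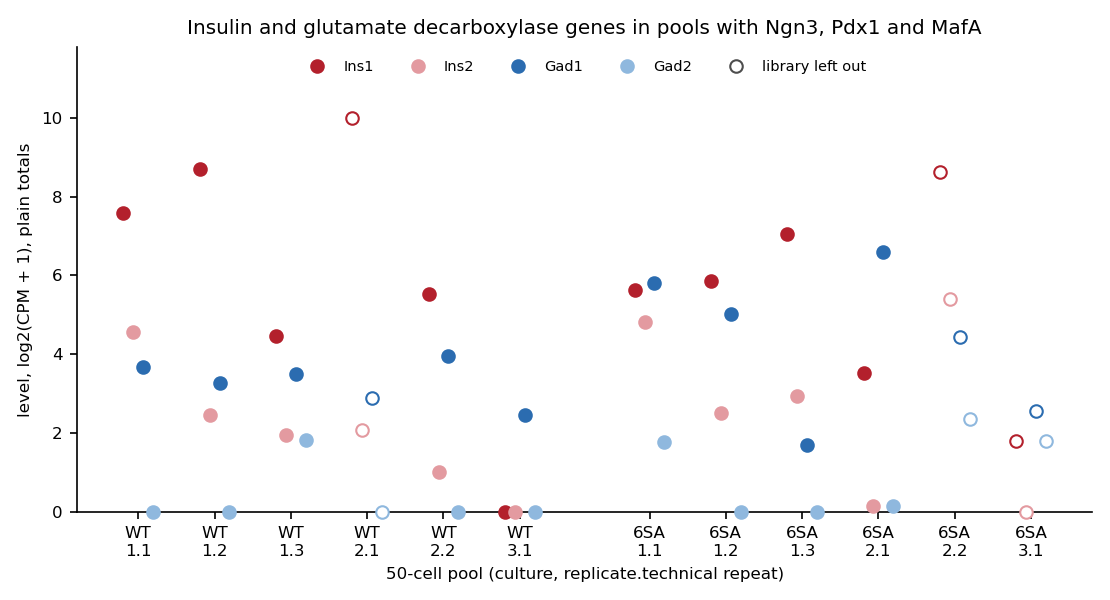
Level of Ins1, Ins2, Gad1 and Gad2 in each 50-cell pool with Ngn3, Pdx1 and MafA, as log2(CPM + 1) on plain totals, by culture, replicate and technical repeat. Filled points are libraries kept and open points the 3 left out for low totals. Ins1 runs from 0 to 413 CPM among pools kept, and in replicate 1 of the 6SA cultures the pool highest in Ins1 is the lowest in Gad1.

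Ptprn (ENSMUSG00000026204, chr1:75247027-75264502, minus strand) and Ptprn2 (ENSMUSG00000056553, chr12:116485720-117276849, plus strand) encode transmembrane proteins of the dense-core granule with a phosphatase fold that has little or no enzyme activity. Both separated the 17 samples with Ngn3 from the 15 without, as 0.542% of all genes tested did in this direction. Ptprn was at 0.843 to 51.8 CPM without Ngn3, and at 65.9 to 632 CPM with it. Ptprn2 was nearly off without Ngn3, at no more than 8 counts and 0.721 CPM in any sample, and at 9.01 to 154 CPM with it.

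By replicate, Ptprn was at 262, 115 and 65.9 CPM in WT cells with Ngn3 and Pdx1, at 342, 255 and 105 CPM with Ngn3 and MafA, and at 432, 632 and 153 CPM with all 3. In the 6SA cultures it was at 347, 132 and 88.6 CPM, at 425, 351 and 67.5 CPM, and at 438 and 447 CPM (2 replicates). The means of the 3 combinations over both cultures were 168 ± 111 (SD, n = 6), 258 ± 144 (n = 6) and 420 ± 171 CPM (n = 5), and their ranges overlapped. Without Ngn3, Ptprn averaged 10.8 ± 10.3 CPM with Pdx1 (n = 4), 17.8 ± 7.11 CPM with MafA (n = 5) and 16.8 ± 21.3 CPM with both (n = 6).

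Over all combinations Ptprn had a log2 fold change of 4.16 for Ngn3 (standard error 0.51, adjusted p = 5.7e-07), in a comparison that called 11.1% of genes higher. Of the 7 members tested 4 were called higher, Ptprn, Ptprn2, Gad1 and Ica1, and the overall change of Ins1, Ins2 and Gad2 was not estimated, since its standard error was over 50. That of Gad1 includes the MafA conditions, in which Gad1 without Ngn3 rests on 1 count. The change was 4.003 on Pdx1 (standard error 0.92, adjusted p = 0.018), 3.83 on MafA (0.86, 0.00635) and 4.65 on both (0.81, 0.000178), against 1.32%, 2.5% and 9.42% of genes called higher, and 2, 3 and 6 of the 7 members tested. The calls on Pdx1 and on MafA were lost without replicate 2 (adjusted p = 0.637 and 0.334). In each of the 6 matched comparisons within a culture the samples with Ngn3 lay above those without, where between 6.4% and 18.7% of genes did so (6.43%, 8.36% and 11.1% in WT and 8.73%, 6.4% and 18.7% in 6SA). Differences of mean log2(CPM + 1) ran from 3.36 to 5.49, and the exact permutation test (two-sided) gave p = 0.1 for groups of 3 and 3 and p = 0.2 for groups of 3 and 2, the smallest such groups allow with this test. On the annotation, exons of Ptprn share bases with Gm28294 on the other strand, which had 66 counts over all libraries.

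Ptprn2 in WT cells was at 81.1, 62.4 and 15.4 CPM with Ngn3 and Pdx1, at 30.4, 35.1 and 10.3 CPM with Ngn3 and MafA and at 74.2, 123 and 76.6 CPM with all 3. In 6SA cells it was at 79.6, 76.7 and 25.6 CPM, at 42.2, 99.4 and 9.01 CPM and at 96.0 and 154 CPM. The means were 56.8 ± 29.1 CPM with Pdx1 (SD, n = 6), 37.7 ± 33.0 CPM with MafA (n = 6) and 105 ± 33.9 CPM with all 3 (n = 5). A 6SA sample with Ngn3 and MafA (99.4 CPM) lay inside the range of the last and above all samples with Ngn3 and Pdx1. Pdx1 against MafA beside Ngn3 differed by 0.67 on the log2 scale (95% interval -0.29 to 1.63) and did not pass (edgeR adjusted p = 0.821).

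The overall log2 fold change of Ptprn2 for Ngn3 was 8.98 (standard error 0.51, adjusted p = 1.1e-12), the largest of these 4 genes. It was 7.72 on Pdx1 (0.84, 2.9e-06) and 10.12 on Pdx1 with MafA (0.80, 3.0e-09). On MafA, 2421 counts stood against 2, a ratio per depth of 815 with a counting interval of 226 to 6737 (adjusted p = 1.4e-06). Adding Pdx1 to Ngn3 with MafA gave a log2 fold change of 1.58 that missed the threshold (standard error 0.52, adjusted p = 0.089), and 1.65 in the fit blocked by replicate number, which passed it (adjusted p = 0.0055). For Ptprn the same step was 0.72 (95% interval -0.68 to 2.13, adjusted p = 0.648), and adding MafA to Ngn3 with Pdx1 gave 1.34 for Ptprn (-0.07 to 2.75) and 0.91 for Ptprn2 (-0.09 to 1.92), neither past the threshold, though Ptprn passed without replicate 1 (2.09, adjusted p = 0.00382).

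Slc30a8 (ENSMUSG00000022315, chr15:52295553-52335798, plus strand), which loads zinc into the insulin granule, was hardly detected. It had 14 counts (0.634 CPM) in 6SA cells with Ngn3 and Pdx1, replicate 1, and 8 counts (0.489 CPM) and 1 count in replicates 1 and 2 of 6SA cells with Ngn3 and MafA. All other samples had 0, the 5 with all 3 factors included. With counts in 4 of 58 libraries it did not pass the filter for testing.

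Gad1 (ENSMUSG00000070880, chr2:70553072-70602014, plus strand) encodes the larger glutamate decarboxylase, GAD67, and Gad2 (ENSMUSG00000026787, chr2:22622205-22693874, plus strand) the smaller, GAD65, which is the form most often targeted in human diabetes. Here Gad1 was the form that appeared. With Ngn3 and MafA it was at 52.6, 82.3 and 5.29 CPM in WT cells and at 214, 155 and 35.1 CPM in 6SA cells. With Ngn3 and Pdx1 it was at 8.11, 11.5 and 0 CPM in WT and at 38.97, 19.99 and 9.23 CPM in 6SA cells, and with all 3 factors at 9.15, 12.9 and 4.12 CPM and at 33.6 and 81.2 CPM. Gad1 was thus highest with MafA as the partner of Ngn3, above all samples of the other Ngn3 combinations only in 6SA replicates 1 and 2 and, in WT, in replicate 2. Without Ngn3 it was at 0 in 10 of 15 samples and at most 3.63 CPM (WT with Pdx1, replicate 2).

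For Ngn3 over all combinations Gad1 had a log2 fold change of 6.95 (standard error 0.84, adjusted p = 6.1e-07). On Pdx1 with MafA it was 5.60 (1.11, 0.000806) and on MafA 6537 counts stood against 1 (ratio 4403, counting interval 790 to 174000, adjusted p = 0.000301). On Pdx1 alone the change was 3.68 and did not pass (standard error 1.196, adjusted p = 0.143). It did pass without replicate 3 (4.19, adjusted p = 0.0216) and in the fit blocked by replicate number (4.18, adjusted p = 0.0046). Without replicate 2 the calls on MafA and on both were lost (adjusted p = 0.059 and 0.0771). In 5 of the 6 matched comparisons the samples with Ngn3 lay above those without, the exception being WT cells with Pdx1, where 1 sample of each group was at 0.

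Between partners, Gad1 was lower with Pdx1 than with MafA beside Ngn3, at a log2 fold change of -2.71 (SE 0.92, 95% interval -4.52 to -0.91). This missed the threshold over all genes (adjusted p = 0.346, 0.133% of genes called) and passed with the replicate block (-2.66, adjusted p = 0.0478) or without replicate 1 (-2.84, adjusted p = 0.0264). When Pdx1 was added to Ngn3 with MafA the value was -1.83 (interval -3.72 to 0.07, adjusted p = 0.31), and when MafA was added to Ngn3 with Pdx1 it was 0.88 (-0.92 to 2.69, adjusted p = 0.728).

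Gad2 did not exceed 15 counts or 1.22 CPM in any sample. Its 31 counts with all 3 factors were 15 in WT replicate 1, 15 in 6SA replicate 1 and 1 in 6SA replicate 2, and each of the 15 came from 1 pool of 3. With Ngn3 and MafA, where Gad1 was highest, Gad2 had 0 counts in all 6 samples. Low counts were also seen without Ngn3, up to 7 in a sample. No test of Gad2 passed, in the main fit or in any alternative. In the main fit the lowest edgeR adjusted p was 0.0835, for Pdx1 added to Ngn3 with MafA, and alternatives came closer to the threshold. In WT cells Gad2 had 4 and 2 counts with Pdx1 and 2, 0 and 0 with Ngn3 and Pdx1.

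Ica1 (ENSMUSG00000062995, chr6:8630527-8778488, minus strand) was counted in all 58 libraries and had the smallest change of the 4 genes called. Without Ngn3 it averaged 61.9 ± 15.5 CPM with Pdx1 (n = 4), 51.4 ± 13.8 with MafA (n = 5) and 51.1 ± 15.3 with both (n = 6). With Ngn3 it averaged 98.7 ± 45.5 CPM beside Pdx1 (n = 6), 96.9 ± 42.0 beside MafA (n = 6) and 103 ± 28.2 with all 3 (n = 5, SD throughout). The samples without Ngn3 spanned 31.1 to 77.5 CPM and those with it 47.1 to 174 CPM, so the groups overlapped.

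Over all combinations Ica1 had a log2 fold change of 0.87 (standard error 0.19, adjusted p = 0.00107), which fell to 0.48 without replicate 1 and was then not called (adjusted p = 0.203). On Pdx1 with MafA it was 1.02 (0.31, 0.024) and on Pdx1 0.62 (0.34, 0.486). On MafA it was 0.96 and did not pass in the main fit (adjusted p = 0.0917). It passed there with the replicate block (0.97, adjusted p = 0.04) and with DESeq2 (0.98, adjusted p = 0.0324). The call on Pdx1 with MafA was lost without replicate 1 (adjusted p = 0.202), without replicate 2 (0.195) and with all libraries (0.0558), and that on MafA appeared without replicate 3 (adjusted p = 0.0283). Groups did not overlap in 4 of the 6 matched comparisons. In 6SA cells with Ngn3 and Pdx1 it was at 169, 114 and 96.7 CPM, all above the 48.7 and 77.5 CPM with Pdx1. In WT the values were 114, 50.9 and 47.1 CPM against 48.3 and 72.9 CPM and overlapped.

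**Figure D3:**
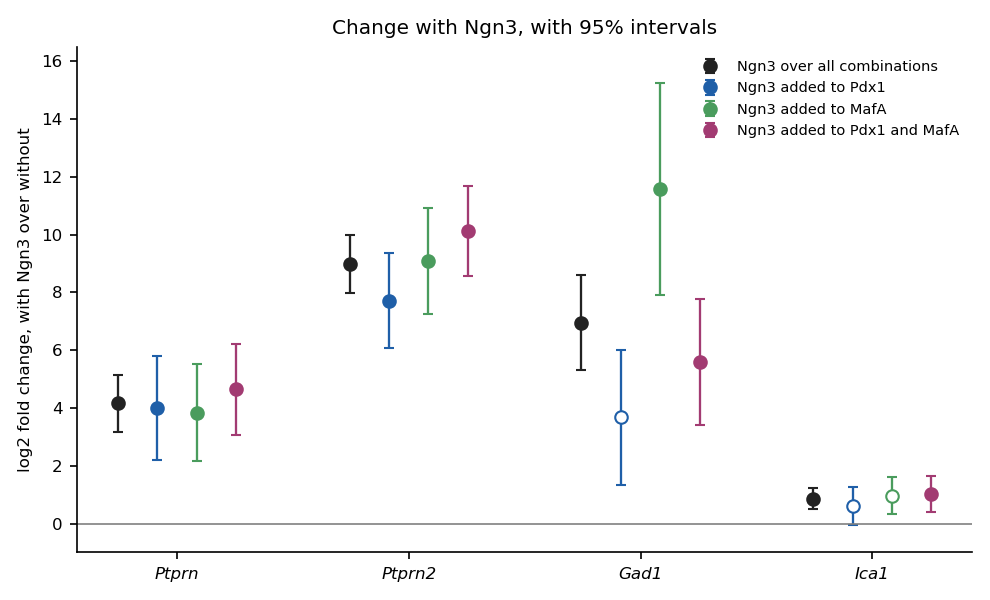
Log2 fold change of the members for which it could be estimated with Ngn3 over all combinations and added to Pdx1, to MafA or to both, with 95% intervals. Filled points passed an adjusted p of 0.05 and open points did not. Ptprn2 lies near 9 over all combinations and Ica1 below 1.02, and the points of Ptprn2 and Gad1 on MafA rest on 2 counts and 1 count without Ngn3.

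Per kilobase of exon, which allows genes to be set against each other, Ptprn was the most abundant member with all 3 factors, at 98.9 ± 40.3 CPM per kb (SD, n = 5 for all). Ins1 was at 49.8 ± 57.8, Ica1 at 31.6 ± 8.70 and Ptprn2 at 12.2 ± 3.94 CPM per kb. Gad1 was at 3.69 ± 4.15, Ins2 at 3.26 ± 4.67, Gad2 at 0.0789 ± 0.102 and Slc30a8 at 0. The spread of Ins1 was larger than its mean, so its place in this order next to Ptprn or Ica1 is not settled by these 5 samples, whereas Ptprn and Ica1 varied by less than their means.

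Along the 12 conditions the order of means was not the same for all members. For Ptprn and Ptprn2 the highest means were 442 ± 6.79 CPM (n = 2) and 125 ± 41.3 CPM (n = 2) in 6SA cells with all 3 factors, for Gad1 135 ± 91.0 CPM (n = 3) in 6SA cells with Ngn3 and MafA, and for Ica1 127 ± 37.6 CPM (n = 3) in 6SA cells with Ngn3 and Pdx1. Neighbours in these orders overlapped in their sample ranges, with 1 break each for Ptprn and Ptprn2, between the lowest condition with Ngn3 and the highest without.

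Replicate 3, at passage 5, was the lowest sample in all 5 Ngn3 conditions that had one for Ptprn, Gad1 and Ica1, and in 4 of the 5 for Ptprn2. Neurog3 was also lowest there in 4 of the 5 conditions, and Pdx1 in 5 of 5. Passage and replicate number cannot be told apart. Replicate 2 of the WT conditions with Ngn3 also had a single library kept, and there Ptprn was at 115 against 65.9, 255 against 105 and 632 against 153 CPM in replicate 3. The parts of passage, factor levels and number of libraries in the low values of replicate 3 were not tested. How many of all genes were lowest in replicate 3 was not counted. Between technical repeats of 1 culture, the highest pool exceeded the lowest by a median of 1.22-fold for Ica1 (1.05 to 2.39, 17 cultures), 1.28-fold for Ptprn (1.05 to 6.85, 17 cultures), 1.72-fold for Ptprn2 (1.18 to 2.77, 8 cultures) and 3.05-fold for Gad1 (1.37 to 24.5, 8 cultures). Gad1 was thus the least even of these 4 between pools of the same cells, as in 6SA replicate 1 with all factors, where its pools held 54.7, 31.6 and 2.23 CPM.

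Phospho-mutant and wild-type Ngn3 were compared next, over the 3 combinations with Ngn3. No gene of 24004 was called by edgeR (0.0%), with 1422 at an unadjusted p under 0.05 and 26 called by DESeq2. Without the gene filter edgeR called 239 of 31181 genes, Gad1 among them (log2 fold change 1.99, adjusted p = 4.9e-05). Gad1 averaged 71.6 CPM in the 6SA and 20.7 CPM in the WT conditions, with overlapping sample ranges of 9.23 to 214 against 0 to 82.3 CPM. It was higher in 6SA in 8 of 8 pairs of the same combination and replicate number. The pairs share replicate numbers and are not independent, and the share of all genes higher in 8 of 8 was not counted. The log2 fold change of Gad1 was 2.02 (standard error 0.75, 95% interval 0.55 to 3.49) and did not pass over all genes (edgeR unadjusted p = 0.012, adjusted p = 0.78). Blocked by replicate number it was 2.03 (standard error 0.54, adjusted p = 0.369). Neurog3 averaged 100 CPM in 6SA against 39.7 in WT with Pdx1, 73.6 against 99.5 with MafA and 246 against 126 with all 3. Its part was not tested. Without Ngn3, Gad1 averaged 0.297 CPM in the 6SA and 0.742 CPM in the WT conditions, and the fitted difference was 0.13 with edgeR (standard error 0.46) and -0.48 with DESeq2, so its sign was not settled.

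Ica1 was higher in 6SA in 7 of 8 pairs (log2 fold change 0.47, standard error 0.25, adjusted p = 0.868) and Ptprn and Ptprn2 in 6 of 8 each (0.25 and 0.55, standard errors 0.58 and 0.41, adjusted p = 1.0 and 0.956). None of these passed, and their 95% intervals (-0.02 to 0.96, -0.88 to 1.38 and -0.26 to 1.35) include 0. Of the other members, Ins1 was higher in 6SA in 2 of 8 pairs, Ins2 and Gad2 in 1 each and Slc30a8 in 3, with 0 on both sides in some pairs. With all 3 factors Ins1 was at 62.5 and 8.86 CPM in 6SA replicates 1 and 2, against 153 and 39.6 CPM in WT. Ins2 was at 14.2 and 0.0868 CPM there, against 6.16 and 0.878 CPM. The difference between the forms in the effect of Ngn3 was 0.76 for Ptprn, 1.304 for Ptprn2 and 0.28 for Ica1, with no gene called by edgeR (647 at an unadjusted p under 0.05, 5 by DESeq2). No gene was called either between the cultures without Ngn3 (591 unadjusted, 8 by DESeq2). Without the gene filter edgeR called 101 of 31181 genes for the difference in effect and 6 between these cultures, none of them a member.

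**Figure D4:**
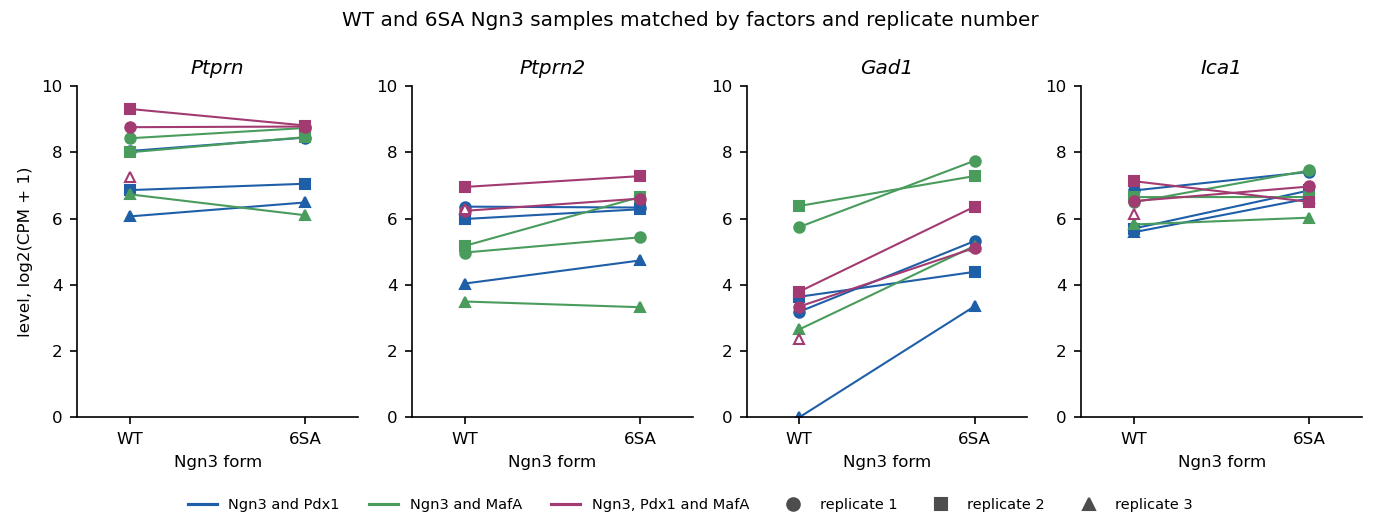
Level of Ptprn, Ptprn2, Gad1 and Ica1 in WT and 6SA samples of the same factor combination and replicate number, as log2(CPM + 1), with lines joining the 8 pairs. The open triangle is WT replicate 3 with all 3 factors, which has no partner. Gad1 rises from WT to 6SA in 8 of 8 pairs, which share replicate numbers and are not independent.

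The genes around the members were taken as lists written by hand, with earlier results of these data known. Of 25 genes of the dense-core granule and its exocytosis, 22 were higher with Ngn3 over all combinations and 0 lower, with a median log2 fold change of 4.73, against 11.1% higher, 10.5% lower and a median of 0.07 over all genes tested. Scg3, which sorts hormones into granules, and Resp18, a neuroendocrine protein, each had a log2 fold change of 10.02 (adjusted p = 2.8e-13), the prohormone convertase Pcsk1 8.85 (7.1e-12) and the granin Chgb 10.15 (8.0e-12). The 3 that did not pass, named after their values were seen, were Pick1, the binding partner of Ica1 (0.03), and the arfaptins Arfip1 (0.26) and Arfip2 (-0.28), which have the same membrane-bending domain as Ica1.

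Of 12 regulators of the insulin gene 10 were higher and 0 lower (median 7.31), led by Neurod1 (10.33, adjusted p = 4.8e-13), Rfx6 (10.92, 4.5e-12), Isl1 (10.54, 2.3e-11) and Neurog3 itself (8.63, 4.6e-11), which like Pdx1 in this list was put in by vector.

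Among 14 other autoantigen genes of type 1 diabetes 7 were higher and 0 lower (median 1.80). Among the 7, Chga, source of the chromogranin peptide of diabetogenic T cells in mice, had a log2 fold change of 9.79 (adjusted p = 4.0e-10), Dmpk 4.13 (1.5e-07), Vamp2 of the exocytotic machinery 1.62 (2.2e-07), the amyloid hormone Iapp 7.07 (5.3e-06), Tspan7 1.56 (0.000234) and G6pc2, the islet glucose-6-phosphatase known as IGRP, 8.54 (0.000322). Levels of G6pc2 were spread from 0 to 150.2 CPM with Ngn3 and were at most 0.0589 CPM without. Those that did not pass were Sox13, Mrps31, Hspa5, P4hb, Hspd1 (-0.46, adjusted p = 0.0541), Prph and Npy, of which Hspd1, Hspa5, P4hb and Mrps31 act in protein folding or in mitochondria of all cells. Chga and Vamp2 are also in the granule list.

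Of 16 GABA genes 9 were tested, and 4 were higher and 0 lower (median 1.85). Among them were both metabotropic receptor genes, Gabbr2 (5.95, adjusted p = 4.6e-07), at 15.2 ± 13.7 CPM (SD, n = 17) with and 0.311 ± 0.516 CPM (n = 15) without Ngn3, and Gabbr1 (2.02, 3.9e-05), and Abat, which breaks GABA down (2.12, 0.0234). The vesicular GABA transporter Slc32a1, looked up after values were seen, had 0 CPM in all 32 samples. Of 15 other receptor-type phosphatase genes 5 were higher and 2 lower (median 0.22), with Ptprt (1.41, 5.0e-06) and Ptpru (5.004, 1.8e-05) up and Ptprd (-1.497, 0.000193) and Ptprk (-0.81, 0.000414) down. Of 14 zinc transporters and zinc-binding genes 13 were tested, of which 2 were higher and 1 lower (median -0.11), namely the importers Slc39a14 (1.02, 0.00649) and Slc39a6 (0.62, 0.0244) and the vesicle loader Slc30a3 (-4.70, 0.000412), at 0.175 CPM with and 0.985 CPM without Ngn3.

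**Figure D5:**
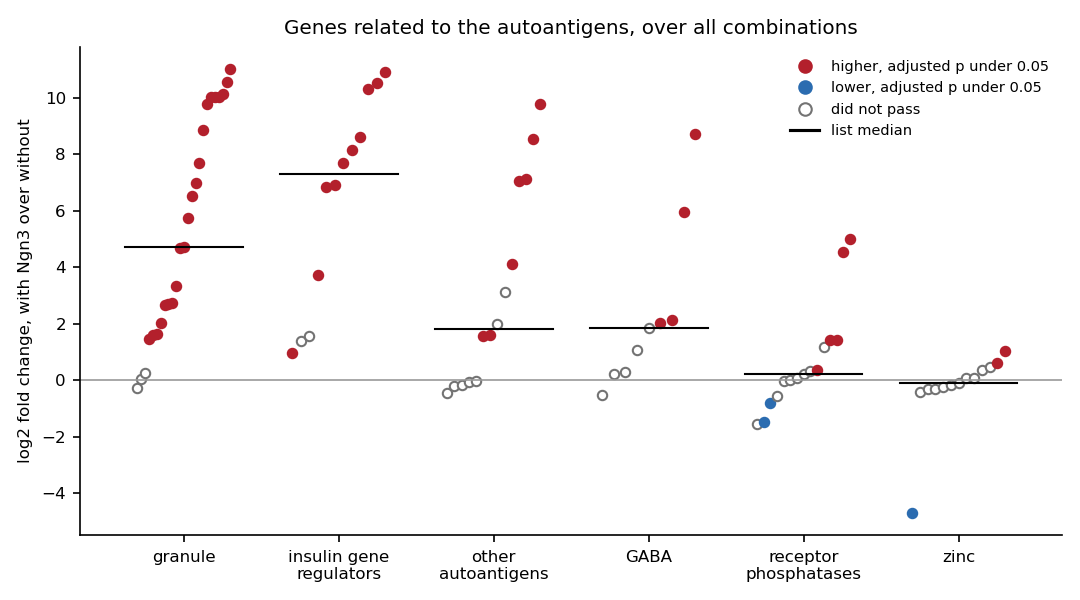
Log2 fold change for Ngn3 over all combinations of each gene in the lists around the members, with 1 point per gene (red called higher, blue called lower, open not passed) and a line at the list median. The granule genes have a median of 4.73 and the regulators of the insulin gene 7.31, while the receptor-type phosphatases and zinc genes lie around 0.

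Markers of other cells moved with the same contrast. Of 11 duct markers 8 were lower with Ngn3 (10.5% of all genes were called lower), among them Spp1, from 17300 ± 11190 CPM (SD, n = 15) to 3247 ± 3745 CPM (n = 17), while Krt7, Sox9 and Epcam did not pass. Of 7 neuron markers 6 were tested and all were higher, with a summed level of 17.3 to 514 CPM with Ngn3 and 3.16 to 74.7 CPM without. Map2 was the most abundant, at 96.4 ± 84.5 against 19.1 ± 20.3 CPM, and the glutamate transporter Slc17a6 was at 0 in all samples. The Gad1, Ptprn, Gabbr1 and Gabbr2 values moved with these markers, whose part in them was not tested.

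Acinar markers (3 of 7 tested, 0 higher, 1 lower) summed to at most 10.3 CPM with and 12.7 CPM without Ngn3, with Cpa1 and Ptf1a at 3 counts or fewer in every sample. Stromal markers (2 of 5 tested, none passed) reached 279 CPM in a sample with Ngn3 and 13.2 CPM without, endothelial markers (3 of 4, none passed) 27.0 and 1.56 CPM, and immune markers (2 of 5, 1 lower) 43.7 and 27.1 CPM. Lum, Cdh5, Cd3e and Adgre1 had at most 3 counts in every sample, while Col1a2 reached 188, Col1a1 89.9, Kdr 26.3 and Cd68 43.5 CPM in a sample with Ngn3. The part of such cells in the results was not tested.

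Across the 32 samples, the genes most like each member on log2(CPM + 1) were described by Pearson's r, over points that share the libraries and the split by Ngn3. Ptprn2 was closest to St18 (0.992), Neurod1 (0.991) and Rfx6 (0.991), and Ptprn to Chga (0.946), Pclo (0.946) and Syt13 (0.944). Gad1 was closest to Kcnh6 (0.919), Slc38a5 (0.915) and Slc35d3 (0.902), all with a lower r than the neighbours of Ptprn2. Ica1 was closest to Qdpr (0.855), Rab37 (0.844) and Cited1 (0.837). For Ins1 the list was Shisal2a (0.96), Ighv1-23 (0.948) and Pnoc (0.944), for Ins2 Ighv1-22 (0.96), Cnmd (0.953) and Pnoc (0.936), and for Gad2 Cnmd (0.776), Ighv1-23 (0.717) and Defa24 (0.716). The neighbours of Ins1, Ins2 and Gad2 rest on few samples with counts. For Ins1 and Ins2 these counts lay almost only in samples with all 3 factors, while Gad2 had low counts in 4 samples with Ngn3 and 6 without.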

How the data were processed

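RNA was sequenced from sorted 50-cell pools in 61 libraries of 12 conditions. The authors aligned reads to the mouse genome (mm10) with GSNAP, counted them on Ensembl genes with HTSeq 0.5.3p3 and deposited raw counts per gene and library for 46078 genes and 92 spike-ins. Whether counting used strand is not given in the sources used here, and counts do not separate vector from endogenous transcripts of Neurog3, Pdx1 and Mafa. Rows naming no gene (33.9 to 56.5% of reads) and spike-ins were left out of totals. Symbols were matched for 45143 genes. Uninfected cells, Ngn3-alone cells and islets were not analysed here.

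Libraries with over 1000000 gene counts, over 10000 genes and under 25% spike-ins were kept (58 of 61, with 1373561 to 9736403 counts) and technical repeats summed to 32 samples. A gene was tested (24004 were) if 5 libraries or more detected it and log2(CPM + 1) had a variance over 0.001. One edgeR 4.0.16 quasi-likelihood model (R 4.3.3, TMM, legacy setting) covered the 12 conditions, and contrasts were averaged over WT and 6SA cultures. An adjusted p under 0.05 (Benjamini-Hochberg, all genes tested) was a call. Fold bounds against groups at 0 used 3 counts per summed sample. A contrast whose standard error was over 50, or whose coefficients were all at the boundary, was not estimated. Exact permutation tests used scipy 1.17.1 under Python 3.11.15. Depth limits cover counting error only, since PCR copies are not independent molecules. Alternatives included DESeq2 1.42.0. Models were tested on simulated data.

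The members and gene lists were chosen with earlier results of these data known. Named besides members were up to 4 called genes per list with the lowest adjusted p, all other autoantigen genes, the most abundant markers and the 3 genes most correlated with each member (mean CPM of at least 1), except for some list genes that are not reported here. Same-numbered samples were taken as paired, from the data and not the labels, where the deviations from condition means over 5000 genes correlated by over 0.1 in each of 3 pairs. This held for all contrasts but Ngn3 added to Pdx1 (2 pairs), Ngn3 added to Pdx1 with MafA (-0.055 to 0.167) and MafA added to Ngn3 with Pdx1 (0.072 to 0.494). The main model did not use this pairing, so its standard errors, intervals and p-values treat the samples as unpaired.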

Additional observations from a re-analysis of the deposited data

Results flagged for a closer look

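Of the 3 libraries left out for totals under 1000000 gene counts, 2 held Ins1 well above the samples without Ngn3, all of which had 0 counts. The left-out first technical repeat of WT replicate 2 with Ngn3, Pdx1 and MafA had 641 Ins1 counts (1025 CPM on its plain total), against 271 counts (45.0 CPM) in the repeat of that culture that was kept. The left-out second repeat of 6SA replicate 2 had 95 Ins1 counts (393 CPM), against 102 (10.5 CPM) in the repeat kept. The third left-out library, 6SA replicate 3, had 1 Ins1 count. The 3 had totals of 625650, 241563 and 408733 counts, and Ins2, Gad1 and Gad2 stood at 2, 4 and 0 counts in the first, 10, 5 and 1 in the second and 0, 2 and 1 in the third.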

How the results depend on the processing

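With all replicates in, the number of members called moved by over 1.5 times for 4 comparisons. For MafA added to Ngn3 with Pdx1 (1 called, Ins1, with 451 of 24004 genes called) the count was 0 with DESeq2 (1344 of 16527 genes called). It was 3 without the gene filter (1454 of 31181) and 2 with all libraries (512 of 24004). For Pdx1 added to Ngn3 with MafA (1, Ins1, with 654 of 24004 genes called) it was 4 without the gene filter (1930 of 31181 genes called). It was 3 without edgeR's legacy setting (1648 of 24004), 2 with only the conditions compared (531 of 24004) and 2 with all libraries (901 of 24004). DESeq2 called 1, Ptprn2 in place of Ins1 (1935 of 16986 genes called). For Pdx1 against MafA beside Ngn3 (0, with 32 of 24004 genes called) the count was 1, Gad1, without the gene filter (634 of 31181) and without the legacy setting (101 of 24004). For 6SA against WT Ngn3 (0, with 0 of 24004 genes called) the count was 1 without the gene filter, Gad1 (edgeR adjusted p = 4.9e-05). That setting called 239 of 31181 genes, and Gad1 passed in no other setting. DESeq2 called 4 members for Ngn3 added to Pdx1 with MafA, without Ins1 and Ins2 (5149 of 18378 genes called, against 4279 of 24004 in the main fit). The causes were not tested.

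With each replicate left out in turn, members called ranged from 3 to 4 for Ngn3 over all combinations, 1 to 3 on Pdx1, 1 to 4 on MafA, 3 to 6 on Pdx1 with MafA, 0 to 2 for MafA added, 0 to 1 for Pdx1 added and 0 to 1 for Pdx1 against MafA, and stayed at 0 for the 3 comparisons of the forms. Without replicate 2, which leaves 1 sample in some conditions (assumed to vary like the others), genes called for Ngn3 over all combinations fell from 5168 to 2085, on Pdx1 with MafA from 4279 to 880, on MafA from 1121 to 138 and on Pdx1 from 358 to 16. Without replicate 1, Ngn3 over all combinations called 3139 genes.

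With the replicate number as a block, members called were 2 for MafA added (Ins2 gained, adjusted p = 0.0366), 3 for Pdx1 added and 1 for Pdx1 against MafA, and Gad1 on Pdx1 passed (4.18, adjusted p = 0.0046). The block changed no call of a member other than these and those given above, and 28 of 32 samples correlated best with their own number. Genes called rose by over 1.5 times with it for 5 comparisons: on Pdx1 from 358 to 1011, on MafA from 1121 to 2123, for MafA added from 451 to 1188, for Pdx1 added from 654 to 2038 and for Pdx1 against MafA from 32 to 216. For the same 5 in this order DESeq2 called 911, 1928, 1344, 1935 and 288 genes and edgeR without the gene filter 1273, 2077, 1454, 1930 and 634.

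Of the fold changes recomputed, 537 kept direction and side of the threshold, 27 newly passed, 16 no longer passed and 13 changed sign, all 13 among values that did not pass. Sizes moved too. Log2 fold changes ran from 4.60 to 10.49 for Gad1 and 3.98 to 7.05 for Ptprn on Pdx1 with MafA, and from 6.93 to 11.24 for Ptprn2 on Pdx1. For Ica1 the values with a replicate left out ranged from -0.057 to 1.09 on Pdx1, -0.053 to 0.448 for MafA added, -0.083 to 0.299 for Pdx1 added and -0.149 to 0.157 for Pdx1 against MafA. With all libraries they were -0.0397 for MafA added and -0.0536 for Pdx1 added, and for Pdx1 against MafA 0.0154 (DESeq2), 0.0148 (RLE size factors) and 0.00077 (replicate block). Between cultures without Ngn3 the ranges with a replicate left out were -0.615 to 0.536 for Ptprn and -0.988 to 0.00106 for Ptprn2, and DESeq2 gave -0.481 for Gad1. For the difference in Ngn3 effect Ptprn ranged from -0.340 to 0.992. Levels kept their values within 1 SD but for 3 levels in 6SA cells with all factors. Exact differences kept their direction but not their size. That of Gad1 in WT cells with Ngn3 and MafA was 4.93 on log2(CPM + 1), 8.16 with 0.1 in place of 1 and 2.155 with 10. Slc30a8 and Gad2 rest on at most 14 and 15 counts in a sample.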
